A study of Mus musculus with 12 samples.

Results

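The microRNAs miR-378 (mmu-miR-378 on the array) and miR-378* (mmu-miR-378*) are the 2 arms of 1 hairpin precursor, and they were followed through osteoclast differentiation as 2 of the 696 mouse miRNAs on the array. Both were selected on their measured signals, because these rose from day 1 to day 5 in the cultures described here, so that rise is given as a description with no test. No other name on the array starts with miR-378.

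Osteoclasts are the multinucleated bone-resorbing cells that form from myeloid precursors under M-CSF, which keeps the precursors alive and dividing, and RANKL, which drives their differentiation. All cultures were bone marrow cells of C57BL/6 male mice 6 to 8 weeks old, from which erythrocytes had been lysed and B220/CD45R+ and CD3+ lymphocytes removed, so other marrow cells could remain. Every culture received 30 ng/ml each of M-CSF and RANKL, and 4 independent cultures were profiled at each of days 1, 3 and 5, 1 culture per single-color array, with no culture without RANKL. The groups thus differ in time in culture, and the effect of RANKL cannot be told apart from that of time.

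A miRNA hairpin is cut into a short duplex, and one arm is usually loaded into an Argonaute protein as the guide while the other, written with a star in the older nomenclature, is mostly degraded. The names in current use for miR-378 and miR-378* are miR-378a-3p and miR-378a-5p. The hairpin lies in an intron of Ppargc1b, the gene of PGC-1beta, a transcriptional coactivator of mitochondrial biogenesis that is also known from osteoclasts, and miR-378 has been studied mostly in muscle, brown fat and mitochondrial metabolism. The array design places the miR-378 probes on chromosome 18 (mm9) between 61557539 and 61557551 and the miR-378* probes between 61557498 and 61557514. In the RefSeq annotation of GRCm38.p6, Mir378a spans positions 61397835 to 61397900 of chromosome 18 and lies within Ppargc1b (61291445 to 61400756).

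miR-378 was low at day 1 and high at days 3 and 5. The total signal of mmu-miR-378, the background-subtracted linear intensity summed over its probes, was 1228, 1070, 996 and 957 on the day 1 arrays of replicates 1 to 4. At day 3 the same quantity was 18078, 15717, 16686 and 17432. At day 5 it was 29328, 25033, 31008 and 28548. Each day 3 array was thus above each day 1 array, each day 5 array was above each day 3 array, and no values of different days overlapped. The means were 1063 ± 119, 16978 ± 1015 and 28479 ± 2516 (SD, n = 4 per day), a ratio of 15.97 for day 3 over day 1 and 26.8 for day 5 over day 1. The lowest day 5 array stood at 20.4 times the highest day 1 array. The scanner software called miR-378 detected on 12 of 12 arrays, all 20 of its spots were well above background on each array, and 0 of 240 spots were saturated.

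miR-378* followed the same order of days. The total signal of mmu-miR-378* at day 1 was 62.7, 99.2, 103 and 60.3. At day 3 it was 1349, 1193, 1272 and 1308, and at day 5 it was 2102, 1834, 2216 and 2004. The day 1 arrays were again below all later ones, and in total signal the day 5 arrays were above the day 3 arrays. The means were 81.4 ± 23.0, 1281 ± 66.5 and 2039 ± 162 (SD, n = 4 per day), which gives ratios of 15.7 for day 3 over day 1 and 25.0 for day 5 over day 1. The day 1 level of miR-378* was close to the detection limit. It was called detected on 1 of 4 arrays at day 1 (replicate 2) and on 4 of 4 at days 3 and 5. At day 1 only 0 to 3 of its 20 spots per array were well above background, and the error that the software attached to the signal was 24.5% to 80.0% of it, against 7.21% to 8.35% at day 5. On the day 1 array of replicate 1, 1 spot marked as an outlier read 4715. The rise of miR-378* therefore starts from a level that was measured on a single array, and without normalization the lowest day 5 array was still 17.7 times the highest day 1 value.

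**Figure D1:**
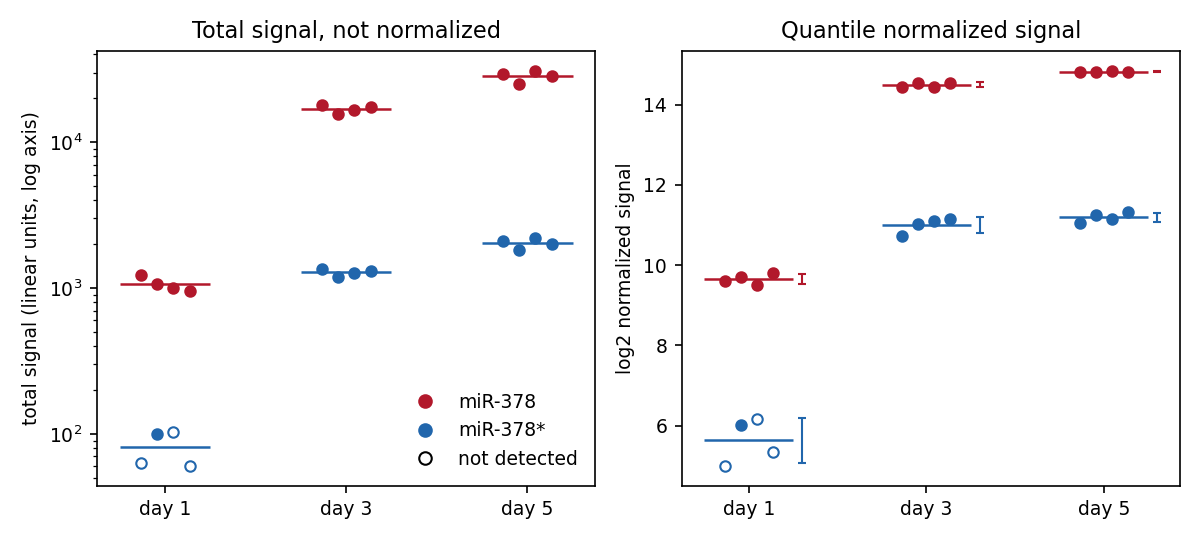
Signal of miR-378 (red) and miR-378* (blue) on each of the 12 arrays by day, as total signal on a log axis (left) and after quantile normalization on the log2 scale (right). Open circles mark arrays on which the miRNA was not called detected, horizontal lines are means of the 4 arrays and bars on the right are ± 1 SD. Both arms lie higher on every day 3 and day 5 array than on any day 1 array, and 3 of the 4 day 1 values of miR-378* are not detections.

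To compare arrays, quantile normalization, which gives every array the same distribution of values, was applied to the 334 miRNAs with a detection on any array. On this scale miR-378 was 9.61, 9.70, 9.51 and 9.80 at day 1, 14.45, 14.55, 14.45 and 14.55 at day 3, and 14.81, 14.81, 14.85 and 14.81 at day 5 (log2). miR-378* was 5.00, 6.03, 6.16 and 5.35 at day 1, 10.72, 11.02, 11.11 and 11.15 at day 3, and 11.06, 11.25, 11.15 and 11.31 at day 5 (log2). Again no later array overlapped with day 1 for either arm, while for miR-378* days 3 and 5 did overlap. Among the 334 miRNAs, all day 3 arrays were above all day 1 arrays for 29.9%, all day 5 arrays were above all day 1 arrays for 32.6%, and all day 5 arrays were above all day 3 arrays for 22.5%. Both arms were chosen for this order, so nothing is read from their place in these shares. In these cultures of mixed cells a change in the share of a cell type cannot be told apart from a change in RNA per cell. The day 3 arrays were all on slide 2, with its own scan, and all arrays of days 1 and 5 were on slide 1, so slide and day 3 cannot be told apart, while day 5 and day 1 were compared within 1 slide.

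The normalized change of miR-378 was 4.84 ± 0.07 (log2, SE of the limma fit) from day 1 to day 3, a 28.7-fold rise, and 5.17 ± 0.07 from day 1 to day 5, a 36.0-fold rise. For miR-378* the changes were 5.37 ± 0.24 and 5.56 ± 0.24, or 41.2-fold and 47.1-fold. With day 1 values detected on 1 of 4 arrays, the size of these folds is uncertain: scaling to the 75th percentile gave 26.8-fold and 25.6-fold, and normexp background correction gave changes of 2.96 and 3.14 (log2). Most of the rise was present by day 3, with 93.7% of the day 5 change of miR-378 and 96.5% of that of miR-378* on the log2 scale. Where arrays were not normalized, these shares were 84.3% and 85.7%.

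What happened between days 3 and 5 depended on the scale. For miR-378 the change was 0.33 ± 0.07 (log2, SE) after quantile normalization, 0.74 with no normalization and 0.01 when arrays were scaled to their 75th percentile. For miR-378* the change was 0.19 ± 0.24, 0.67 and -0.07, so its direction turned with the scaling. The summed signal of all mouse miRNAs was 58.6% of its day 1 level at day 3 and 80.7% at day 5, and each scaling treats this difference in its own way. From day 1 the change under these scalings was between 4.002 and 5.17 for miR-378 and between 4.02 and 5.56 for miR-378* (log2, days 3 and 5 against day 1).

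The spread between cultures was small for miR-378 and, at day 1, large for miR-378*. The coefficient of variation of the total signal was 11.2%, 5.98% and 8.84% for miR-378 at days 1, 3 and 5, and 28.3%, 5.19% and 7.94% for miR-378*. After normalization the SD of miR-378 at day 5 was 0.02 on the log2 scale, against a median of 0.14 over the 171 miRNAs detected on all 4 day 5 arrays. On 3 of the 4 day 5 arrays miR-378 held the same rank and so received the same value, 14.81, and this SD understates the spread seen in the total signal.

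Each arm was measured by 2 probes of 10 spots each, and the probes gave the same picture. The 2 probes of an arm cover nearly the same bases, so their agreement is not independent evidence. From day 1 to day 5 the total probe signal of miR-378, without normalization, rose by 4.63 at the 13-base probe and 4.82 at the 14-base probe (log2). For miR-378* the changes were 4.70 at the 17-base probe and 4.71 at the 18-base probe. The 4 probes thus spanned 0.18 on the log2 scale, less than the SD between the day 1 arrays at either miR-378* probe, which was 0.41 at the 17-base and 0.56 at the 18-base probe. From day 3 to day 5 the changes were 0.74 and 0.75 for the miR-378 probes and 0.67 and 0.67 for the miR-378* probes.

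**Figure D2:**
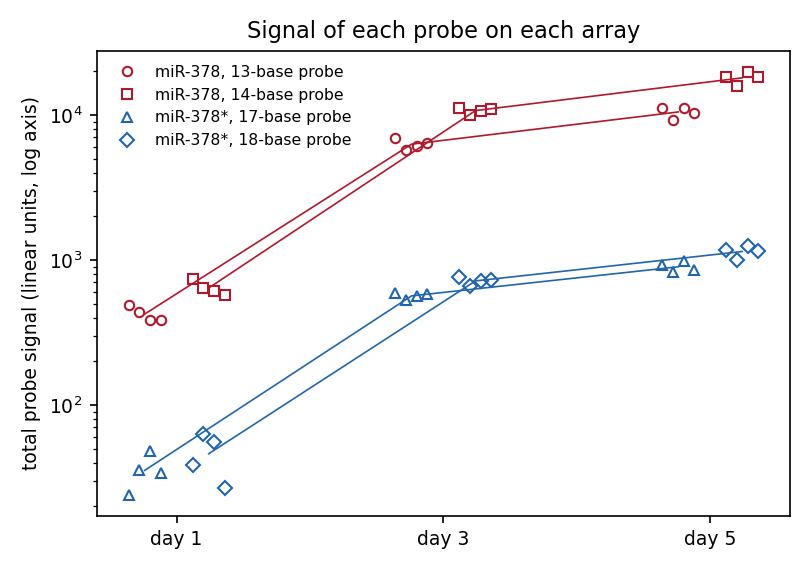
Total signal of each probe on each array by day, without normalization, on a log axis, with lines through the day means. Red symbols are the 13- and 14-base probes of miR-378 and blue symbols the 17- and 18-base probes of miR-378*. All 4 probes rise steeply from day 1 to day 3 and less from day 3 to day 5, and the day 1 points of the miR-378* probes scatter most.

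The probes were searched against the mature mouse miRNAs of RefSeq (GRCm38.p6) for other RNAs that they could pair with. Both miR-378 probes paired over their full length with miR-378d (chromosome 10), and with 1 mismatched base with miR-378b (chromosome 11, within Msi2) and miR-378c (chromosome 14, within Samd4 and Gm52120). The signal named miR-378 can therefore include miR-378d, and possibly these relatives, from other loci. Of the 558 array miRNAs whose every probe fully matched an entry, 7 (1.3%) matched more than 1 name. The miR-378* probes matched no entry with 2 or fewer mismatches. The mature entries of miR-378 and miR-378* themselves were not among those searched, and how much miR-378d contributed to the signal was not tested.

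The balance of the arms could be followed only as a change, since levels at different probes cannot be set against each other. The signal named miR-378 can include miR-378d from another locus, so the ratio need not be that of this hairpin alone. On the scale without normalization, which is the same as any scaling by 1 factor per array, the log2 ratio of miR-378 to miR-378* relative to day 1 was -0.02 ± 0.01 at day 3 and 0.06 ± 0.03 at day 5 (SD, n = 4), with an SD of 0.48 at day 1. The day 5 arrays ranged from 0.03 to 0.09 and those of day 3 from -0.03 to 0.00, and the means differed by 0.07. The day 3 arrays were on a slide of their own, so this difference cannot be told apart from one between slides. How the ratios of other arm pairs differed between these days was not examined. Against the day 1 spread neither shift from day 1 was large. After quantile normalization the ratio fell by 0.52 at day 3 and 0.39 at day 5, less than its day 1 SD of 0.61.

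Both arms of 25 precursors, of 159 with both arms on the array, were detected on all 4 arrays of at least 1 day each, and miR-378 is described against these. The changes of the arms from day 1 to day 5 differed by 0.39 for the miR-378 pair on the normalized log2 scale and by a median of 0.65 over the 25 pairs, with 7 pairs closer together. With 75th percentile scaling the difference was 0.06 for miR-378 against a median of 0.53, with 1 pair closer. At day 1 miR-378* was detected on 1 of 4 arrays, and the SD of the arms' log2 ratio there was 0.48 with this scaling. The signal of miR-378 can also include miR-378d. The closeness of the miR-378 arms and their place among the pairs are therefore uncertain. In 17 of 25 pairs the arms changed in the same direction, and in 7 both rose more than 2-fold. Ordered by the smaller change of the arms, the miR-378 pair came second with 5.17, after miR-455 and miR-455* (7.90), which were not detected on any day 1 array so that this size rests on day 1 values below detection, and before the miR-199a arms (2.23). The correlation of the arms' changes over the 25 pairs was r = 0.851, and 0.835 without miR-378, given as a description of pairs that share their arrays.

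**Figure D3:**
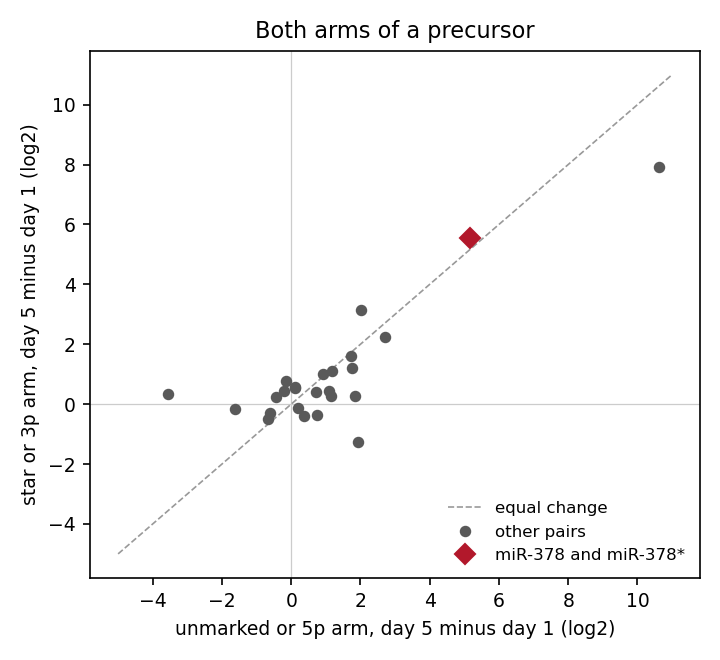
Change from day 1 to day 5 (normalized log2) of one arm against the other for 25 precursors, with the dashed line marking equal change. The miR-378 pair (red) lies close to that line at 5.17 and 5.56, away from most pairs, and the point farthest to the upper right is miR-455.

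Compared with the rest of the array, miR-378 showed the largest rise from day 1 to day 3 and from day 1 to day 5 among the 148 miRNAs detected on all 12 arrays. It was chosen for its rise, so this place is a description and not a test. It kept this place for day 5 under each of the 9 alternatives that were ranked, and for day 3 under all of these except the deposited values, where miR-338-5p came before it. From day 3 to day 5 it was at rank 36. Among all 334 miRNAs, miR-378 was at rank 20 and miR-378* at rank 18 for the rise to day 5. Of the 19 miRNAs ahead of miR-378, 17 were not detected on any day 1 array and 12 had no day 1 value above the floor of 1, so the size of their rise is set by that floor. The other two were miR-378* itself and miR-214. The next largest rises among the 148 were those of miR-365 (3.57), miR-674* (3.13) and miR-99a (2.72).

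**Figure D4:**
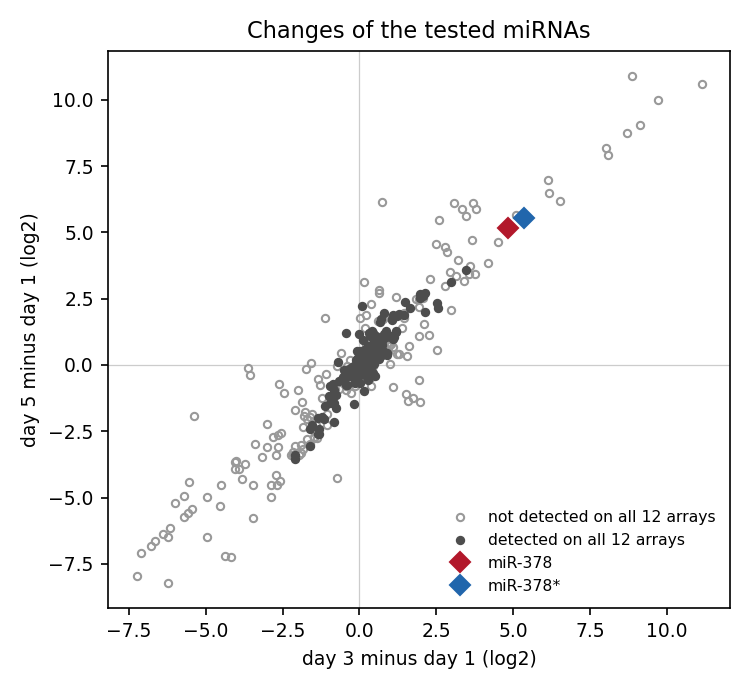
Change from day 1 to day 3 against change from day 1 to day 5 (normalized log2) for 334 miRNAs, filled where detected on all 12 arrays. Among the filled points miR-378 (red) is the farthest to the upper right, at 4.84 and 5.17, and miR-378* (blue) is at 5.37 and 5.56, among miRNAs with no detection on some arrays.

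The miRNAs whose time course was most like that of miR-378 were found by Pearson's r over the 12 arrays, among the 147 others detected on all of them. The 5 highest were miR-23a (0.998), miR-365 (0.994), miR-674* (0.994), miR-185 (0.993) and miR-125b-5p (0.987), where the median over the 147 was 0.494 and 33 were over 0.9. Between miR-378 and miR-378* the correlation was 0.992. A shape with a low day 1 and like days 3 and 5 gives a high r whatever its size. For miR-23a, a miRNA of a cluster that is abundant in myeloid cells, the whole change was 0.56 (log2), 71 of its spots were saturated and it had the same normalized value on all arrays of a day. By the distance between the changes at days 3 and 5, the nearest were miR-365, miR-674*, miR-185, miR-99a and miR-326, so 3 of the 5 were shared by both measures. miR-365, a miRNA also studied in brown fat, came nearest with changes of 3.48 and 3.57. miR-674*, at 2.97 and 3.13, was next. miR-185 rose by 2.51 to day 3 and stood at 2.35 at day 5, while miR-125b-5p, miR-99a and miR-326 moved on between days 3 and 5, with 1.98 and 2.51, 2.12 and 2.72, and 2.07 and 2.61. None of them could reach the size of miR-378, which had the largest rises of the pool they were drawn from. miR-378* rose more than miR-378 on the quantile normalized scale only. To day 5 it rose by 4.68 against 4.74 with 75th percentile scaling, and by 4.69 against 4.75 with no normalization. The RefSeq mature sequences of 6 of these 7 are shown to let their seeds be compared, since the seed, bases 2 to 8 in capitals, sets most of a miRNA's target choice. In GRCm38.p6 they are encoded on the plus strand at chr8:84208563-84208583 (miR-23a), chr11:79726467-79726488 and chr16:13453895-13453916 (miR-365), chr2:117185186-117185207 (miR-674*), chr16:77646279-77646300 and chr9:41581940-41581961 (miR-125b-5p), chr16:77598940-77598961 (miR-99a) and chr7:99552328-99552348 (miR-326). All 6 seeds differed:
miR-23a: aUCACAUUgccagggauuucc
miR-365: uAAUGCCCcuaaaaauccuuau
miR-674*: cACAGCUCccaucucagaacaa
miR-125b-5p: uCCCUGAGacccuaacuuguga
miR-99a: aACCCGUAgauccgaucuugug
miR-326: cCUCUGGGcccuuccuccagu

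**Figure D5:**
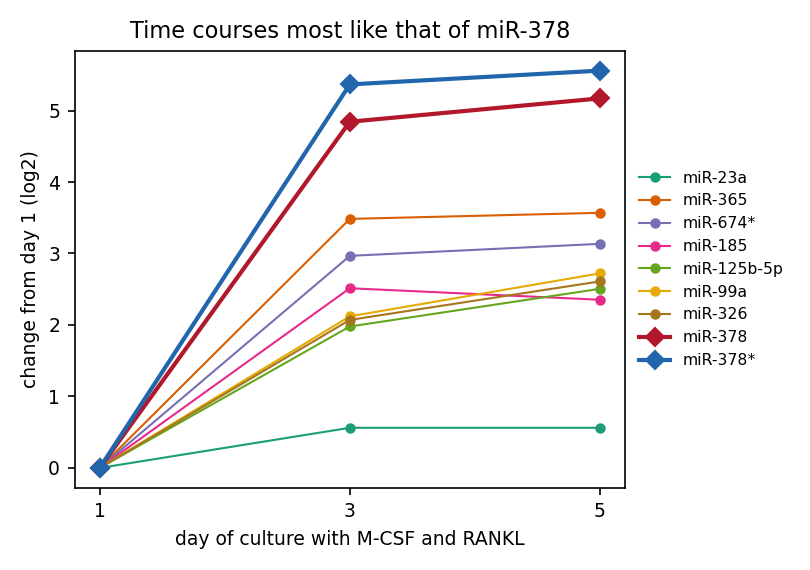
Change from day 1 (normalized log2 means of 4 arrays) by day of culture for miR-378, miR-378* and the 7 miRNAs most like miR-378. Both miR-378 arms run above the others at days 3 and 5, miR-365 is the nearest at 3.48 and 3.57, and miR-23a stays at 0.56. The others were drawn from a pool in which miR-378 had the largest rises.

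The hairpin of miR-378 sits in a gene of the PGC-1 family, so other miRNAs known from brown fat and PGC-1 biology were looked at beside it. This list and those of lipid metabolism and intronic miRNAs below were drawn up with earlier results of these data known. Their counts beside the shares of all tested miRNAs are therefore a description. Of 16 such miRNAs, 14 were tested. From day 1 to day 5, 7 rose and 1 fell more than 2-fold at an adjusted p under 0.01 (limma, Benjamini-Hochberg), where 24.3% of all 334 tested miRNAs rose and 22.5% fell. The list's median change was 0.91 against 0.11 for all tested miRNAs (log2). Of the 7 that rose, 4 (miR-455, miR-196a, miR-32 and miR-193b) were not detected on any day 1 array and entered the test only through later days. No fold is given for them, and the list's median rests in part on their day 1 values below detection. At day 5, miR-455 and miR-193b were each detected on 4 of 4 arrays, miR-32 on 3 and miR-196a on 2. Of the 9 list members detected on all arrays of days 1 and 5, 3 rose: miR-365 by 3.57 ± 0.12 (SE, limma adjusted p = 8.54e-10), miR-27b by 1.75 ± 0.08 (limma adjusted p = 1.15e-08) and miR-34a by 1.00 ± 0.12 (limma adjusted p = 2.52e-05), which is at the 2-fold limit. These 3 were singled out after their values were seen. The share called among all miRNAs detected on these arrays was not worked out, so nothing is read from this count. The only member that fell was miR-155, a miRNA induced in activated macrophages, by 1.05 on the log2 scale (limma adjusted p = 0.00368). With no normalization between arrays 3 of the 14 passed in place of 8.

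Of 9 miRNAs known from lipid and energy metabolism, 6 were tested. From day 1 to day 5, 2 rose and 1 fell, beside the 24.3% and 22.5% of all tested miRNAs. Both that rose, miR-143 and miR-33, which lies in an intron of Srebf2, had no detection at day 1 and entered the test only through later days. miR-370 fell by 3.16 on the log2 scale (limma adjusted p = 5.63e-05). The list's median change was 0.70 against 0.11 for all tested miRNAs (log2). It includes miR-143 and miR-33, so it rests in part on day 1 values below detection, and no shift of the list is read from it.

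Of 30 other miRNAs that lie within introns of protein-coding genes, as miR-378 does, 26 were tested. From day 1 to day 5, 12 rose and 2 fell, beside the same 24.3% and 22.5% of all tested miRNAs, and the list's median change was 0.84 against 0.11 (log2). With 75th percentile scaling, and with no normalization, 9 passed in place of 14. The largest normalized changes were those of miR-489 (an intron of Calcr, the calcitonin receptor gene that osteoclasts express), miR-455, miR-32 and miR-33. These 4 of the 12 had no day 1 detection and entered the test only through later days. No fold is given for them, and the list's median rests in part on their day 1 values below detection. miR-489 was detected on 0 of 4 arrays at day 1 and on 4 of 4 at days 3 and 5. Of the 2 that fell, miR-126-3p, which marks megakaryocytes and endothelium and lies in Egfl7, was detected on 4 of 4 arrays at day 1 and on 0 at day 5, and miR-139-5p fell by 1.63 on the log2 scale (limma adjusted p = 3.68e-06). Of the 17 detected on all arrays of days 1 and 5, 6 rose and 1 fell. The shares above are over all tested miRNAs and not over those with such detection, so nothing is read from these counts. miR-378, which was chosen for its rise, rose more than each of these 17, of which miR-185 had the largest rise (2.35).

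Some markers of other cells moved as the miR-378 arms rose, and their part in the rise was not tested. Of 7 miRNAs of striated muscle, the tissue best known for miR-378, 6 (miR-1a, miR-133a, miR-133b, miR-208a-3p, miR-208b and miR-499) were not detected on any of the 12 arrays, and miR-206 was detected on 1 day 1 array. The summed normalized signal of the erythroid miRNAs miR-451 and miR-144 ranged over 25500 to 38100 at day 1, 1290 to 2140 at day 3 and 136 to 268 at day 5. The megakaryocytic miR-126-3p was at 578 to 893 at day 1 and at most 50.1 afterwards, without detection. Stromal miRNAs (5 of 5 tested) summed to 437 to 666 at day 1, 591 to 669 at day 3 and 2600 to 3630 at day 5, a sum that mostly follows the miR-199a arms. By member, the stromal changes from day 1 to day 3 ranged from -3.62 for miR-145 to 3.71 for miR-214, neither of which was detected at day 3. The summed signal of the 3 lymphoid miRNAs lay between 1630 and 2760 on all arrays, carried by miR-181a and miR-181b. These 2 changed in opposite directions from day 1 to day 5, by -0.80 for miR-181a and 0.45 for miR-181b (log2). miR-150 was detected on 4 of 4 arrays at day 1 and on 0 at days 3 and 5. The granulocytic miR-223, also expressed in monocytes, had saturated spots and was at 80700 to 82700 at day 1 and 59800 to 61300 at days 3 and 5.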

How the data were processed

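The deposited scanner files come from Feature Extraction 9.5.3.1, per the file headers, and hold linear intensity values of single-color arrays, background subtracted and not normalized between arrays. The authors' own table, quantile normalized with GeneSpring and given as log2 values, was used as an alternative. Here the total signals of 334 miRNAs detected on at least 1 of 12 arrays were quantile normalized (limma 3.58.1, R 4.3.3), raised to a floor of 1 (9.28% of values) and converted to log2. lmFit and eBayes were fitted with 1 mean per day on all arrays, with Benjamini-Hochberg adjustment over the 334. A miRNA was called at an adjusted p under 0.01 and over 2-fold. The script was tested on simulated data.

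The members and lists were chosen with earlier results of these data known. Named beside the members were the 5 miRNAs of highest r, the 5 nearest in changes and the 3 next rises. The plan was to name up to 4 called members per list, and more are named for the brown fat and intronic lists. Names on the array with a shared seed were not searched, and the sequences of the miR-378 family are not reported here. The lists used miR-1a and miR-208a-3p for miR-1 and miR-208a, and of the 4 erythroid markers 2 matched a name. Mature sequences and gene spans are from RefSeq (GRCm38.p6). Precision is set by the 4 arrays per day. Alternatives covered the filter, scaling, signal, background, floor, replicates and pairing. Python 3.11.15 drew the figures.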

Additional observations from a re-analysis of the deposited data

Results flagged for a closer look

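The normalized level of miR-378 on the day 5 array of replicate 3 was 14.852 (log2) and lay apart from the other three, which shared the value 14.814. Quantile normalization gives arrays the same value where a miRNA has the same rank, so the gap amounts to a step in rank. The total signal of miR-378 on this array, 31008, was not apart from the other day 5 arrays. The screen for such gaps covered 12 groups of 4 arrays, and chance marks about 1 in 20 groups.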

How the results depend on the processing

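The changes of miR-378 and miR-378* were recomputed with another filter, scaling, signal, background correction, floor and table, and without each array. The rise from day 1 kept its direction for both arms in all of these. Scaling to the 75th percentile gave 4.73 (day 3 minus day 1), 4.74 (day 5 minus day 1) and 0.009 (day 5 minus day 3) for miR-378, and 4.75, 4.68 and -0.066 for miR-378*, the last a turn of direction. No normalization gave 4.002, 4.75 and 0.74 for miR-378 and 4.02, 4.69 and 0.67 for miR-378*. Normexp correction gave 4.52 and 4.83 from day 1 for miR-378 and 2.96 and 3.14 for miR-378*. The deposited values gave 11.92 and 12.11 for miR-378*, from a single day 1 value of -1.15. Leaving out 1 array gave 4.78 to 4.92, 5.10 to 5.23 and 0.31 to 0.35 for miR-378, and 5.16 to 5.58, 5.35 to 5.78 and 0.10 to 0.24 for miR-378*.

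From day 1 to day 5, 81 miRNAs rose and 75 fell. The rises numbered 48 with 75th percentile scaling, 48 with no normalization and 50 with normexp, and the falls 47 with normexp. Rises were 51.9% of the calls, and 35.8% and 36.1% with 75th percentile scaling and with no normalization, which put the median change of all tested miRNAs at -0.51 and -0.50. Without 1 array the rises ranged from 71 to 80 and the falls from 64 to 76. The 8 calls of the brown fat and PGC-1 list became 5 when miRNAs had to be detected on all 4 arrays of a day, 5 with no filter, 4 with 75th percentile scaling, and 3 each with no normalization, normexp and the deposited values (6 to 7 without 1 array). The 14 calls of the intronic list became 9 with 75th percentile scaling, no normalization and the deposited values (12 to 15 without 1 array). Of the 5 miRNAs most like miR-378, 3 were kept by distance, by 75th percentile scaling and by no normalization. The cause of these differences was not tested.

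With the replicate block the changes from day 1 to day 5 remained 5.17 for miR-378 and 5.56 for miR-378*, with 81 rises and 72 falls. Replicates of the same number deviated together with correlations of 0.087 to 0.784 over 148 miRNAs, 11 of 12 over 0.1, and 19 of 24 correlated best with their own number, a hint from the data, since the labels give no pairing. Signal near background limits miR-378* at day 1.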
